A study of Mus musculus with 8 samples.

Results

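Peaks at transcription start sites are the regions of 4 RNA immunoprecipitation peak lists whose midpoint lay within 1000 bp of the 5' end of a protein-coding gene, on either side, and in no coding sequence or 3' UTR. They are called members below. Each peak was assigned to its nearest 5' end among 21951 protein-coding genes of the GENCODE vM21 annotation of mm10. The rule found 5175 members among 206501 peaks, and used positions only, not tag counts.

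The antibody was directed against NONO, and the control was IgG. RNA was taken from the liver nuclei of C57BL/6 mice, wild type and 14 weeks old, that had food in the dark phase only of a day with 12 h of light and 12 h of dark. The NONO lists are from fasted livers (zeitgeber time 10), livers of mice re-fed for 2 h (zeitgeber time 14) and livers of mice re-fed for 10 h (zeitgeber time 22). The IgG list comes from 1 library whose feeding state and hour the labels do not give. Every library pooled 2 experiments and each of the 4 lists rests on 1 immunoprecipitate and 1 input, 8 libraries in all, so there is no replicate error, no p-value was computed, and the intervals given (exact, 95%) cover counting error only. Feeding state and time of day changed together and cannot be told apart, and in whole liver neither can fewer cells of a type and less RNA per cell.

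NONO is an RNA-binding protein of the DBHS family, and with SFPQ and PSPC1 it forms heterodimers that coat the long non-coding RNA Neat1 in paraspeckles. It also binds nascent transcripts and takes part in transcription, splicing and nuclear retention of RNA. At a gene start RNA polymerase II initiates the pre-mRNA and, at many CpG-rich promoters, a short-lived transcript on the other strand, and where a pair of genes lies head to head the same region starts both pre-mRNAs. RNA just downstream of a start is therefore the first exon and the first intron of the pre-mRNA, whereas RNA just upstream comes from antisense transcripts, from neighbouring genes or from read-through.

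The start regions that the results turn on were of more than 1 kind. In RefSeq promoter sequence (GRCm38.p6, 250 bases before to 50 after the start), the TATA-box word TATAAA was found on either strand in 11.8% and the GC-box word GGGCGG on either strand in 50.8% of the 12003 coding starts that have a sequence within 100 bp. These are 54.7% of all coding starts, below 80%, so promoter composition was not compared between groups of starts and only single starts are shown. Each window of 30 bases ends before or near the start and has the matched word in capitals, read 5' to 3' on the gene's strand. The first 4 were chosen because peaks lay over the window itself, and the last 4 because the start had members beside it but no peak over the window in any of the 4 lists.
Afm, chr5:90518907-90518936, plus strand: gtcaaagaatacTATAAAaagttgtgcctc
Ces3b, chr8:105083713-105083742, plus strand: gataagaggtacTATAAAaggcaagtcctc
Apoa2, chr1:171224830-171224859, plus strand: ctgatggatacaTATAAAcccatcaactcc
Trmt10a, chr3:138143377-138143406, plus strand: caggcccagaccCCGCCCcctacaggctcc
Cyp2e1, chr7:140763776-140763805, plus strand: tcaacgacacgtTATAAAatccttgtttct
Hnrnpu, chr1:178337816-178337845, minus strand: ggcctcgcctcggcaggGGGCGGggcgcct
Ap3m1, chr14:21052508-21052537, minus strand: cctctccaagctCCGCCCaatccgtgactc
Adk, chr14:21052544-21052573, plus strand: ttagtggaaaggGGGCGGtgacgagctgag
The TATAAA of Afm and of Ces3b began 30 bases before the RefSeq start and that of Cyp2e1 31 bases before it, whereas that of Apoa2 began 212 bases before it. The windows of Afm, Apoa2 and Trmt10a were inside a NONO peak at all 3 times, and that of Ces3b in the fasted and the 10 h list. A match of letters is a description of the sequence, not a binding site.

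Start sites held a small share of every list. Members were 532 of 38209 peaks in fasting (1.39%, interval 1.28 to 1.51%), 1700 of 61737 at 2 h (2.75%, 2.63 to 2.89%), 1192 of 50609 at 10 h (2.36%, 2.22 to 2.49%) and 1751 of 55946 in the IgG list (3.13%, 2.99 to 3.28%). The fasted share was the lowest and the IgG share the highest, and no pair of these intervals overlapped. Among peaks of 4-fold or more over input the order turned, with 1.55% (fasted), 2.67% (2 h), 2.76% (10 h) and 1.9% (IgG), so that the IgG share lay below both re-fed ones. The lists differ in length, and in the 38209 highest-scoring peaks of each there were 532 (fasted), 1162 (2 h), 931 (10 h) and 1446 (IgG) members. Of all coding genes, 523 (2.38%) had a member at the start in fasting, 1653 (7.53%) at 2 h, 1149 (5.23%) at 10 h and 1695 (7.72%) in the IgG list. Thus more starts carried a called peak after re-feeding than in fasting, while about as many carried one in the IgG list as at 2 h.

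Members had median tag counts close to those of all peaks in the NONO lists and higher ones in the IgG list. Their median normalised tag count, in tags per 10000000 tags of the library, was 16.2 (fasted), 17.1 (2 h), 17.5 (10 h) and 16.3 (IgG), against 17.1, 17.1, 18.1 and 11.1 over all peaks of the same lists. Their median fold over input was 2.89, 3.01, 2.93 and 3.07, against 2.82, 3.13, 2.84 and 4.16 over all peaks, so the IgG members had a lower median fold than their list, and the NONO medians were close to those of theirs. Tags and folds are the authors' values for each peak. The median width of members was 500 bp (fasted), 634 bp (2 h), 628 bp (10 h) and 630 bp (IgG), against 625, 720, 643 and 646 bp over all peaks. At 4-fold or more over input stood 23.3% of fasted, 28.5% of 2 h, 21.8% of 10 h and 31.1% of IgG members, against 21%, 29.4%, 18.6% and 51.2% of all peaks. Members together held 0.132% (fasted), 0.565% (2 h), 0.381% (10 h) and 1.5% (IgG) of the library tags. In the IgG library 63% of that sum lay in 2 members, over the RNA genes Rpph1 and Rmrp, and without them the share was 0.557%. Such sums move with the length called, and per kb of member the lists held 37.9 (fasted), 41.5 (2 h), 44.3 (10 h) and 117 (IgG, those 2 members included) normalised tags.

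Peak midpoints were sparse at the start itself and denser on both sides of it in all 4 lists. Within 200 bp of a 5' end, outside coding sequence and 3' UTRs, the density was 2.1 midpoints per Mb in fasting (interval 1.2 to 3.41), 12.5 at 2 h (10.1 to 15.3), 5.38 at 10 h (3.86 to 7.31) and 15.4 in the IgG list (12.7 to 18.4). From 1000 to 400 bp upstream it was 24.3 (fasted), 74.3 (2 h), 57.2 (10 h) and 66.2 (IgG) per Mb. From 400 to 1000 bp downstream it was 17.4, 51.6, 34.4 and 55.1 per Mb in the same order. The gap at the start was thus flanked by a shoulder on each side, and the members of the fasted list were the rarest at its centre.

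**Figure D1:**
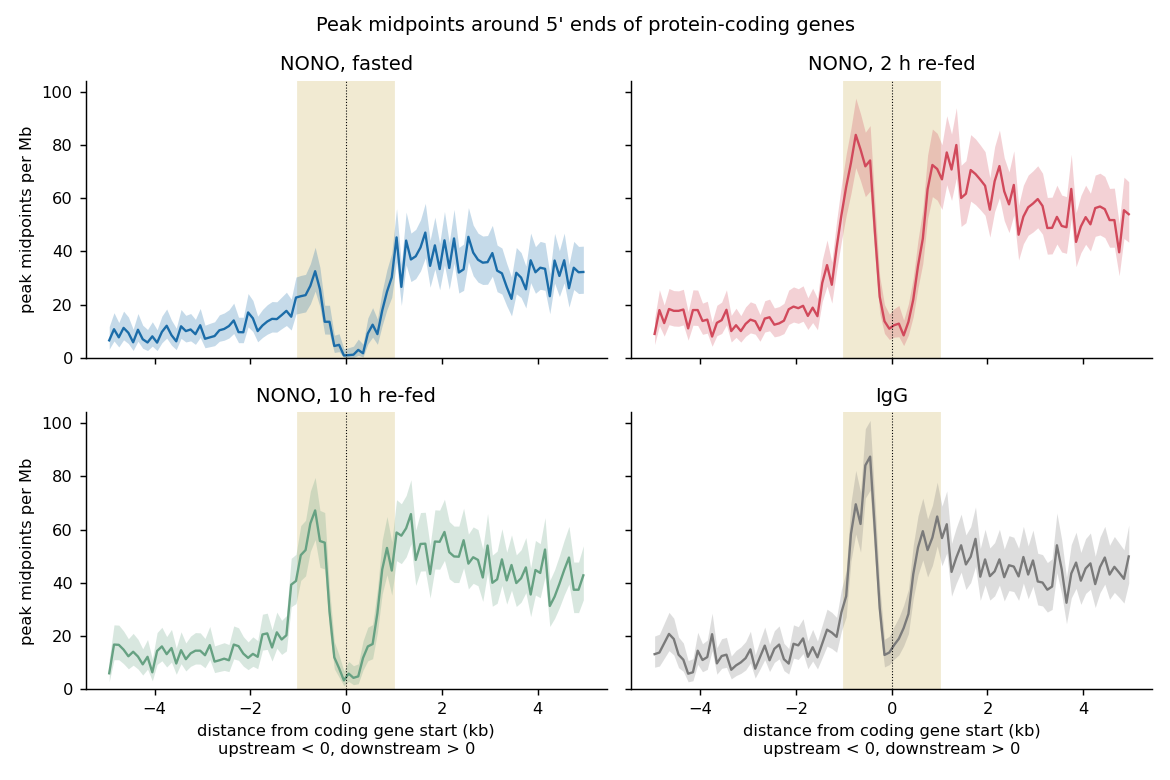
Peak midpoints per Mb of sequence outside coding sequence and 3' UTRs, in bins of 100 bp out to 5000 bp either side of the 5' ends of protein-coding genes, 1 panel per list. Lines are the densities, shaded bands their exact 95% Poisson intervals (counting error only) and the tinted column the window of 1000 bp either side that defines members; each list has a gap at the start and a shoulder upstream, and the density further downstream stays above that further upstream.

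The upstream shoulder stood above the sequence further out, whereas the downstream one merged into the gene body. Between 5000 and 1000 bp upstream the density was 11.1 (fasted), 17.9 (2 h), 15.5 (10 h) and 14.3 (IgG) midpoints per Mb, below the upstream shoulder in each list. Beside this level the gap at the start was deeper in the NONO lists, whereas in the IgG list the intervals overlapped (12.7 to 18.4 at the start and 13.5 to 15.2 further out). Between 1000 and 5000 bp downstream it was 35.1, 58.4, 47.7 and 46 per Mb. The downstream shoulder was below that value in the NONO lists, and above it in the IgG list. Counting bases covered rather than midpoints, a peak lay over the 5' end itself at 0.21% (fasted), 1.32% (2 h), 0.565% (10 h) and 1.66% (IgG) of coding starts. At 600 bp upstream the share was 1.51%, 5.68%, 3.86% and 4.94%, and at 1500 bp downstream it was 2.74%, 6.22%, 3.91% and 3.71%. Of these positions, the upstream one was the more covered in the IgG list and the downstream one in the fasted and 2 h lists, while at 10 h both had about the same coverage. Within 1000 bp of the start, the region just past the 5' end was the least covered in every list.

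**Figure D2:**
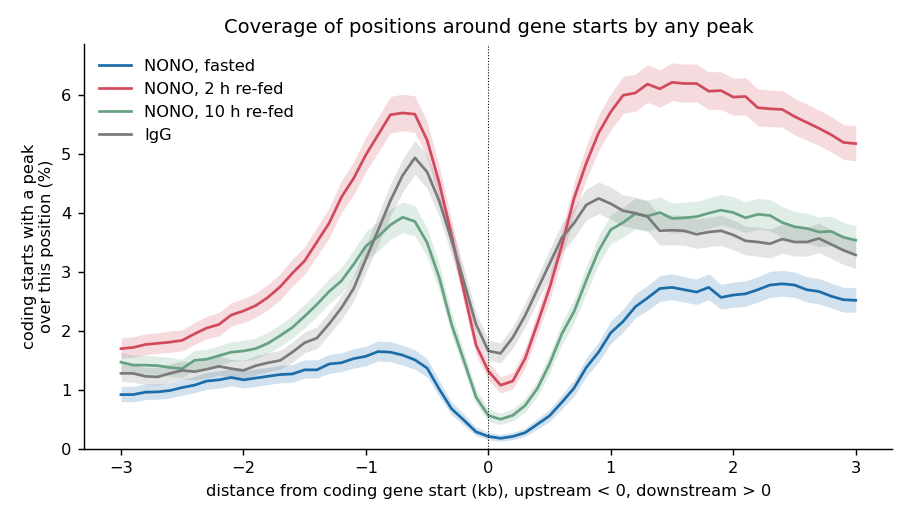
Share of 21951 protein-coding starts (%) with any peak over the position, by distance from the 5' end in kb, 1 line per list with its exact 95% binomial band (counting error only). Within 1000 bp of the start all 4 lines are lowest 100 bp downstream, at 0.178% (fasted), 1.08% (2 h), 0.501% (10 h) and 1.62% (IgG).

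Split by side, 334 fasted, 1066 2 h, 778 10 h and 1013 IgG members lay upstream, and 198, 634, 414 and 738 lay downstream. The upstream share was 62.8% (fasted, interval 58.5 to 66.9%), 62.7% (2 h, 60.4 to 65.0%), 65.3% (10 h, 62.5 to 68.0%) and 57.9% (IgG, 55.5 to 60.2%). The intervals of the 3 NONO shares overlapped, and the IgG interval lay below those of the 2 h and 10 h lists. In lists of equal length the downstream share was 37.2% (fasted), 39.8% (2 h), 36.6% (10 h) and 41.3% (IgG, 38.7 to 43.9%), and the IgG interval then overlapped those of all 3 NONO lists. Few genes had a member on both sides, with 9 in fasting, 47 at 2 h, 43 at 10 h and 56 in the IgG list.

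The commonest place of upstream members was sequence with no annotated gene. The largest class held midpoints in no gene and not within 5000 bp past the 3' end of a coding gene. It took 48.5% of fasted, 52.7% of 2 h, 54.1% of 10 h and 52.1% of IgG upstream members. A further 18.0%, 16.7%, 13.1% and 14.1% also lay in no gene, but within 5000 bp past the 3' end of a coding gene. Inside another coding gene lay 17.4%, 14.5%, 14.1% and 16.5%, and in a long non-coding gene only 14.1%, 14.0%, 15.9% and 14.6%. Within each class the intervals of all 4 lists overlapped. Starts with a divergent long non-coding gene held 3.2% of fasted, 5.29% of 2 h, 5.03% of 10 h and 4.51% of IgG members, where 3.17% of all coding starts have such a neighbour. Because the authors joined the strands, an upstream peak cannot be assigned to the antisense transcript, to a neighbour or to read-through.

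Downstream members lay mostly in introns near the start of the pre-mRNA. The midpoint was in an intron of the gene for 89.4% of fasted, 82.5% of 2 h, 84.3% of 10 h and 76.0% of IgG downstream members. It was in an exon of the 5' UTR for 3.03% (interval 1.12 to 6.48%), 9.46% (7.3 to 12.0%), 7.25% (4.94 to 10.2%) and 11.9% (9.67 to 14.5%). Intronic midpoints were thus the commonest in fasted and the least common in IgG members, and the intervals of those 2 lists did not overlap for either class.

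The sides differed in fold over input, and in opposite order in NONO and IgG lists. In the NONO lists the median fold was 3.06 (fasted), 3.21 (2 h) and 3.07 (10 h) upstream, against 2.55, 2.71 and 2.65 downstream. In the IgG list it was 2.93 upstream, against 3.26 downstream. The median input of upstream members was lower in NONO lists, at 5 (fasted), 5.22 (2 h) and 5.48 (10 h) normalised tags against 7.38, 6.98 and 7.17 downstream, and higher in the IgG list, at 6.07 against 4.55. In each list the side with the higher fold thus had the lower input, and the part of input in that difference was not tested. At 4-fold or more, downstream members were 26.6% (fasted), 26.4% (2 h) and 26.5% (10 h) of the NONO members and 47.3% of the IgG members.

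Bidirectional starts, those with a coding gene on the other strand whose 5' end lies within 1000 bp upstream and that is transcribed away, were 1491 of all coding starts (6.79%) and formed 753 pairs. They carried 32 fasted (6.02%), 119 2 h (7.0%), 70 10 h (5.87%) and 125 IgG members (7.14%), so members were about as common there as starts of this kind are. At 4-fold or more over input the share was 4.54% (2 h), 3.08% (10 h) and 8.62% (IgG). Nearly all members at bidirectional starts lay downstream. Upstream members numbered 0 (fasted), 4 (2 h), 1 (10 h) and 4 (IgG), since a peak upstream of one start and past the other is assigned to that other start, and the gap between the pair had a median of 83.5 bp (fasted), 135 bp (2 h), 108 bp (10 h) and 109 bp (IgG) at these members.

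Over both sides together, bidirectional starts carried members about as often as other starts. A member was present at 2.15% of bidirectional starts in fasting (interval 1.47 to 3.02%), against 2.4% of other starts (2.19 to 2.62%). The shares were 7.98% (6.66 to 9.47%) against 7.5% (7.14 to 7.87%) at 2 h and 4.69% (3.68 to 5.89%) against 5.27% (4.97 to 5.59%) at 10 h. They were 8.38% (7.03 to 9.91%) against 7.67% (7.31 to 8.05%) in the IgG list, so the intervals overlapped in each of the 4 lists. The nearest-start rule hands most of the upstream window of a bidirectional start to its partner, so the windows are not equal in length. Downstream, where the partner does not shorten the window, 2.15% (fasted), 7.71% (2 h), 4.63% (10 h) and 8.12% (IgG) of bidirectional starts had a member. For other starts the downstream shares were 0.811%, 2.54%, 1.69% and 3.02%, and the intervals did not overlap in any list. That stretch also lies upstream of the partner, so the 2 positions cannot be told apart there. Genes at bidirectional starts more often had a peak elsewhere in the body, at 43% (fasted), 50.5% (2 h), 48.4% (10 h) and 47.2% (IgG), against 26.9%, 31.1%, 30.5% and 31.8% of the others. Among genes with such a peak only, a choice made after seeing the data, the ratio of the bidirectional to the other share was 0.555 (fasted), 0.646 (2 h), 0.514 (10 h) and 0.648 (IgG), against 0.896, 1.06, 0.89 and 1.09 over all starts, on the same unequal windows. Downstream alone, 3.12% (fasted), 10.4% (2 h), 5.96% (10 h) and 9.94% (IgG) of the bidirectional starts of such genes had a member. For their other starts the shares were 2.09%, 5.65%, 3.56% and 6.51%, and only the fasted intervals overlapped.

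**Figure D3:**
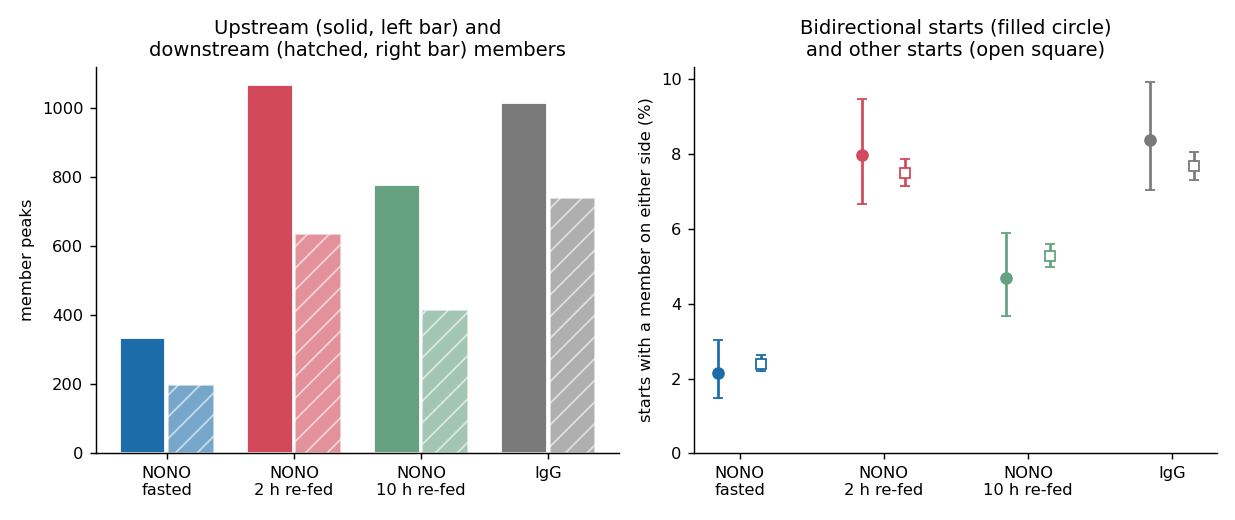
Left: number of members upstream and downstream of the 5' end in each list. Right: share of starts (%) with a member on either side, for 1491 bidirectional and 20460 other protein-coding starts, with exact 95% binomial intervals (counting error only); the intervals of bidirectional and other starts overlap in each of the 4 lists.

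Most pairs had no member, and those that did mostly had one on 1 arm. Of the 753 pairs, 32 (4.25%) had a member at either start in fasting, 119 (15.8%) at 2 h, 70 (9.3%) at 10 h and 122 (16.2%) in the IgG list. Both arms had one in 0, 2, 3 and 6 pairs. Ap3m1, which encodes a subunit of the AP-3 adaptor complex, and Adk, the adenosine kinase gene, are a bidirectional pair on chromosome 14, with 5' ends at 21052508 and 21052574. At 2 h a member of 224.7 normalised tags lay 885 bp into Ap3m1, and at 10 h a member of 120.4 normalised tags lay 850 bp into Adk. The IgG member at Ap3m1 held 12.1 normalised tags, and the fasted list had no peak in either window. Both arms had a peak at each re-fed time, since a 2 h peak of 156.5 normalised tags lay 1200 bp into Adk and a 10 h peak of 73.3 lay 1168 bp into Ap3m1, both with midpoints beyond the window. Neither promoter window printed above was inside a peak. At other pairs, Slc31a1, which encodes a copper importer, had a fasted member of 52.8 normalised tags 951 bp downstream, and at 2 h a peak of 25.6 normalised tags whose midpoint was beyond the window. Fam162a had a 2 h member of 142.2 normalised tags and no NONO peak in the window at the other times.

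A substantial part of the members coincided with IgG peaks. By at least 1 shared bp, an IgG peak met 31.0% of fasted, 35.7% of 2 h and 40.8% of 10 h members, against 33.7%, 39.3% and 39.5% of all peaks of these lists. Upstream the share was 32.3% (fasted), 37.9% (2 h) and 44.2% (10 h), and downstream it was 28.8%, 32.0% and 34.3%. At 2 h the interval of members (33.4 to 38%) lay below the value of all peaks, and at the other times it held that value. Members were narrower than other peaks, and among peaks under 1000 bp wide IgG met 30.6% (fasted), 31.4% (2 h) and 39.1% (10 h) of members, against 29.9%, 28.1% and 32.8% of all peaks, so the order at 2 h turned with width. Below that width the interval of members lay above the value of all peaks at 2 h (28.9 to 33.9%) and 10 h (36.1 to 42.1%). In fasting (26.6 to 35%) it held that value. Counting only peaks of 4-fold or more in both lists, IgG met 5.65% (fasted), 8.45% (2 h) and 8.46% (10 h) of members, against 10.3%, 14.1% and 12.6% of all such peaks. The interval of members held the value of all peaks in fasting (2.3 to 11.3%) and lay below it at 2 h (6.13 to 11.3%) and 10 h (5.38 to 12.5%). Starts with an IgG-free member, one that no IgG peak touches, numbered 364 (fasted), 1074 (2 h) and 690 (10 h). These were 1.66%, 4.89% and 3.14% of all coding genes, where 2.38%, 7.53% and 5.23% had any member. The IgG list was called at 8 tags and the NONO lists at 11 tags, and a peak over Rn7sk, the gene of the 7SK RNA, took 37.5% of the IgG library. On a scale without that peak, IgG tag counts would be 1.6 times those given here, with a median of 26.1 per member.

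Members at the 3 times were partly the same. Of fasted members, a 2 h peak met 57.0% and a 10 h peak 47.2%, against 51.2% and 39.6% of all fasted peaks. Of 2 h members, a fasted peak met 16.8% and a 10 h peak 38.3%, against 28.9% and 40.1% of all 2 h peaks. Of 10 h members, a fasted peak met 21.4% and a 2 h peak 55.4%, against 29.4% and 52.9% of all 10 h peaks. Re-fed members were therefore met by fasted peaks less often than all peaks of their lists were. These members were also narrower, with an upper quartile of width of 902 bp (2 h) and 802 bp (10 h), against 1287 and 975 bp. The part of width in that difference was not tested. By gene, 2471 starts had a member at any time, of which 217 had one in fasting only, 1002 at 2 h only and 524 at 10 h only. Fasted and 2 h lists shared 229 genes (43.8% of the fasted and 13.9% of the 2 h genes), fasted and 10 h lists 203 (38.8% and 17.7%) and 2 h and 10 h lists 548 (33.2% and 47.7%).

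A core of 126 genes had a member at all 3 times, and 64 of them also in the IgG list. On the same side each time were 88 of the 126, with 71 upstream and 17 downstream. Their summed member tags per gene had a median of 19.5 in fasting, 40.5 at 2 h and 30.6 at 10 h, and the highest value was the fasted one at 9, the 2 h one at 72 and the 10 h one at 45 genes. The summed widths had medians of 632, 974 and 878 bp, and per kb the medians were 31.4, 39.5 and 35.2 normalised tags, with the highest value in fasting at 19, at 2 h at 63 and at 10 h at 44 genes. IgG-free members at all 3 times were found at 58 genes, with medians of 20.7, 29.6 and 30.1 normalised tags. Among these 58 were genes of hepatocytes and of metabolism: Alb (albumin), Apoa2 (an apolipoprotein of HDL), Ces3a and Ces3b (carboxylesterases), Leap2 (a secreted peptide that antagonises the ghrelin receptor), Plin2 (a lipid droplet coat protein), Gbe1 (glycogen branching enzyme), and Srebf1, Insig1 and Fdps of lipid and sterol synthesis. They were picked from the 58 by function after the values were seen. No gene had a member of 4-fold or more at all 3 times.

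Genes with a member at the start carried peaks elsewhere too. Another peak lay in the body of 62.9% of genes with a fasted member, 67.9% with a 2 h, 66.8% with a 10 h and 66.7% with an IgG member. For genes without a member the share was 27.1%, 29.6%, 29.7% and 30%. Genes with a member were also longer, with medians of 25.1, 21.6, 21.6 and 21.2 kb, against 17.2, 17, 17.1 and 17.1 kb for genes without. Length and other peaks moved with the members alike in all 4 lists.

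The most tagged fasted member lay at Serpina3k, a serine protease inhibitor gene of liver on chromosome 12 (start 104338486, plus strand). It held 1404 normalised tags in fasting (interval 1354 to 1456), 698.9 at 2 h (664 to 735) and 962 at 10 h (918 to 1008), against 29.5 in the IgG list (22.3 to 38.3). The 3 NONO peaks were between 2825 and 2977 bp wide and covered the start, and the IgG peak was 500 bp wide. Serpina3k has close copies next to it, and how the authors' counting treated reads shared with them is not given in the sources used here. Afm, the gene of afamin, a plasma protein of the albumin family, had a fasted member of 267.2 normalised tags, against an IgG member of 122.7. They were 1695 and 1060 bp wide and held 158 and 116 normalised tags per kb. On the scale without the Rn7sk peak the IgG member held 196. At 2 h and 10 h the Afm peaks held 715.9 and 529.1 normalised tags in widths of 3764 and 3515 bp, with midpoints beyond the window.

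Ces3a and Ces3b, neighbouring carboxylesterase genes on chromosome 8, had IgG-free members just downstream at each time. Ces3a held 134.6 (fasted), 260.8 (2 h) and 264.8 (10 h) normalised tags at 443 to 473 bp, and 135, 189 and 218 per kb of peak. Ces3b held 109.4, 94.8 and 83.7 normalised tags at 462, 526 and 229 bp. At Ces3a both re-fed values were above the fasted one beyond counting error, whereas at Ces3b the intervals of the fasted (95.7 to 124), 2 h (82.1 to 109) and 10 h (71 to 98.1) values overlapped. The windows had no IgG peak at either gene. Hc, the gene of complement C5, held 90.8 (fasted), 385.9 (2 h) and 345.8 (10 h) normalised tags in 1319, 3393 and 1573 bp, and an IgG peak met its 2 h member only. Klkb1, which encodes plasma prekallikrein, held 146.9 normalised tags in fasting and 50.9 at 10 h, with no peak in the window at 2 h or in IgG. The Klkb1 members were 1990 bp (fasted) and 627 bp (10 h) wide. Per kb they held 73.8 and 81.2 normalised tags, so the fasted value was the higher in sum and not per kb.

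Several downstream members were in 1 or both re-fed lists and not in the fasted one. Keg1, a glycine N-acyltransferase-like gene on chromosome 19 (start 12695786, plus strand), had IgG-free members of 773.3 (2 h) and 783 (10 h) normalised tags at 684 and 691 bp. Tat, the gene of tyrosine aminotransferase, had a 2 h member of 539.6 normalised tags that covered the start and no window peak elsewhere. Fgb, the gene of the fibrinogen beta chain on chromosome 3 (start 83049863, minus strand), had the most tagged 10 h member, of 1607.7 normalised tags in the intron at 553 bp and another of 15.9 upstream, with no window peak at the other times or in IgG. For these members the fold over input was 2.36 and 2.31 at Keg1, 2.09 at Tat and 2.07 at Fgb, just past the 2-fold that a peak needed, and a fold just below it gives no peak. Absence from a list is therefore not absence of tags.

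Chd2, which encodes a chromatin remodeller, had the most tagged 2 h member, with 1714.5 normalised tags in a peak of 11641 bp, and 1111.9 in one of 5328 bp at 10 h. Its IgG member held 22.6 normalised tags in 500 bp, another IgG peak of 35.3 in 771 bp touched the window with its midpoint beyond it, and the fasted list had no peak there. Per kb the Chd2 members held 147 (2 h), 209 (10 h) and 45.2 (IgG) normalised tags. Cyp7a1, the rate-limiting enzyme of bile acid synthesis, held 206.7 (2 h) and 199.7 (10 h) normalised tags, against 675.9 in the IgG list. The IgG value at Cyp7a1 was the highest, unlike at Chd2. Ppp1r3c, which targets protein phosphatase 1 to glycogen, had members in all 4 lists, with 84.2 (fasted), 133.7 (2 h) and 426.8 (10 h) normalised tags, against 25.8 in IgG. The 10 h value was the highest of the 4 and the IgG value the lowest, and no pair of their counting intervals overlapped. The peaks were 1005 (fasted), 1654 (2 h), 2464 (10 h) and 500 bp (IgG) wide, and per kb they held 83.8, 80.8, 173 and 51.6 normalised tags, so per kb the 2 h value was not above the fasted one.

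**Figure D4:**
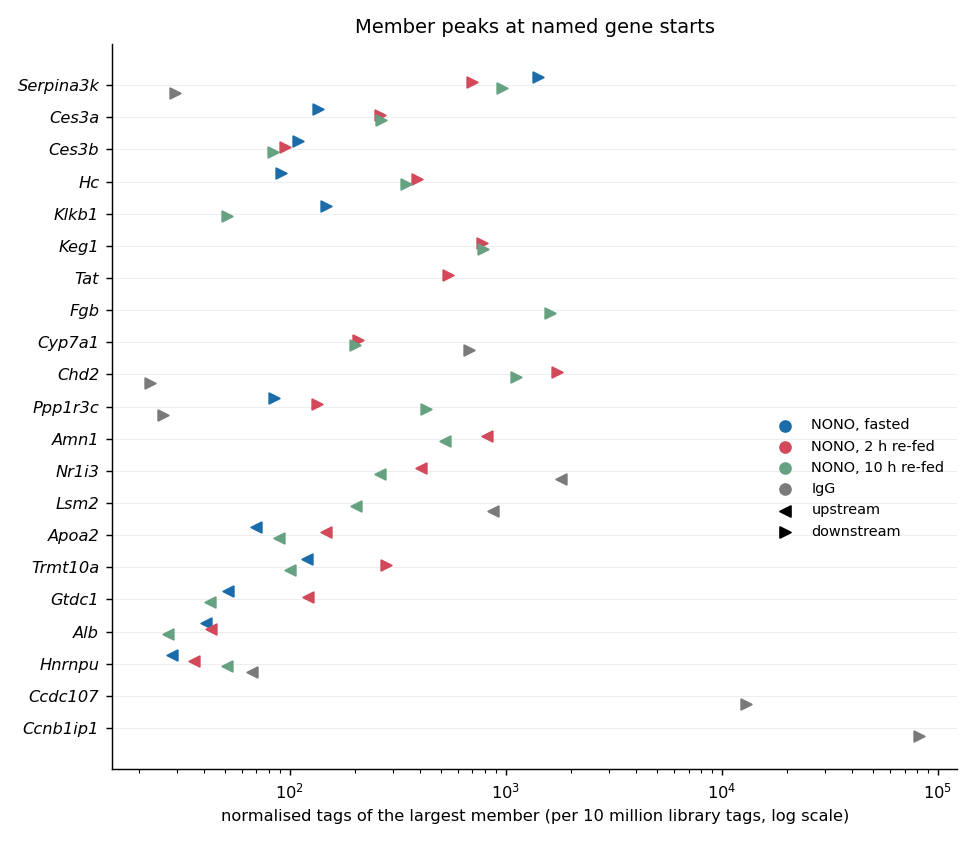
Normalised tags (per 10000000 library tags, logarithmic axis) of the largest member at named gene starts, coloured by list, with arrowheads pointing left for members upstream and right for members downstream of the start. A missing symbol means that no member was called there; the IgG members at Ccnb1ip1 and Ccdc107 are the most tagged of all, and Serpina3k, Chd2 and Ppp1r3c have NONO members with more tags than their IgG member, which was 500 bp wide at each of them.

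At 2 h and 10 h the most tagged upstream member lay at Amn1 on chromosome 6, where IgG peaks were also called. It held 814.1 (2 h) and 522.6 (10 h) normalised tags, the fasted peak of 154.5 had its midpoint beyond the window, and the IgG peak at Amn1 held 504.8 but had its midpoint in coding sequence or 3' UTR. Nr1i3, which encodes the nuclear receptor CAR, held 403.5 (2 h) and 260.5 (10 h) normalised tags, against 1807.8 in IgG. The IgG value was thus just below the 10 h value at Amn1 and above both NONO values at Nr1i3. On the scale without the Rn7sk peak the IgG value at Amn1 was 807, above the 10 h value.

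Other upstream members were free of IgG. Apoa2 on chromosome 1 (start 171225054, plus strand) held 69.4 (fasted), 147.0 (2 h) and 88.6 (10 h) normalised tags at 517, 803 and 527 bp, within 5000 bp past the 3' end of another coding gene. Alb on chromosome 5 (start 90460897, plus strand) held 40.9 (fasted), 43.1 (2 h) and 27.4 (10 h) normalised tags at 647, 632 and 698 bp, in sequence with no annotated gene. The fold at Alb was 2.29 (fasted), 3.21 (2 h) and 5.0 (10 h), where the input held 17.9, 13.4 and 5.48 normalised tags. Trmt10a, a tRNA methyltransferase gene, held 120.3 (fasted), 278.3 (2 h) and 99.6 (10 h) normalised tags, upstream in the fasted and 10 h lists and downstream in a peak of 4706 bp at 2 h. The midpoints of the fasted and 10 h members lay inside another coding gene. Gtdc1 held 51.8, 121.9 and 42.7 normalised tags upstream, and its IgG peak lay beyond the window. The 2 h peaks were also the widest, with 833, 2038 and 1203 bp at Apoa2, 1170, 4706 and 1250 bp at Trmt10a and 640, 1518 and 781 bp at Gtdc1 in fasting, at 2 h and at 10 h. Per kb of peak Apoa2 held 83.3, 72.1 and 73.6, Trmt10a 103, 59.1 and 79.7 and Gtdc1 80.9, 80.3 and 54.7 normalised tags, so the 2 h value was the highest in sum and not per kb. At Alb the intervals of all 3 times overlapped. Hnrnpu, the gene of a nuclear matrix RNA-binding protein, by contrast met IgG and had an upstream member in all 4 lists, of 28.5 (fasted), 36 (2 h), 50.9 (10 h) and 66.9 (IgG) normalised tags.

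The 2 most tagged members of all were in the IgG list and lay over small RNA genes. At the divergent starts of Ccnb1ip1 and Parp2 on chromosome 14, an IgG peak of 625 bp over Rpph1, the RNA of ribonuclease P, held 81661.8 normalised tags at 5.2-fold. At the start of Ccdc107 on chromosome 4, an IgG peak of 500 bp over Rmrp, the RNA of ribonuclease MRP, held 12953.9 normalised tags at 3.23-fold. The NONO lists had no peak in either window at any time. Over any small RNA gene lay 1 fasted, 8 2 h, 6 10 h and 13 IgG members, that is 0.188%, 0.471%, 0.503% and 0.742%, against 0.414%, 0.452%, 0.381% and 0.383% of all peaks. The interval held the value of all peaks in the NONO lists, and in the IgG list it lay just above it (0.396 to 1.27%). The 10 h list had one at Rcc1 over the snoRNA gene Snora73a with 163.6 normalised tags, and the 2 h list one at Tti2 over Snord13 with 65.0.

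Of the 3 DBHS genes, 1 had a member, and other genes of nuclear RNA-binding proteins had more. Nono itself on chromosome X had 1 member, 816 bp upstream at 10 h, with 7.66 normalised tags. Its partners Sfpq and Pspc1 had no peak in the window in any list. Of 32 genes of nuclear RNA-binding proteins, 3 had a member in fasting, 7 at 2 h, 9 at 10 h and 8 in the IgG list (9.38%, 21.9%, 28.1% and 25%, against 2.38%, 7.53%, 5.23% and 7.72% of all coding genes), with median tags of 16.2, 16.6, 9.3 and 21.6 per member. Rbm25, a splicing regulator gene, had IgG-free downstream members of 72.1 (2 h) and 53.6 (10 h) normalised tags.

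Genes of glucose and lipid metabolism had start members more often than coding genes at large, with IgG no less than with NONO. Of 27 glucose and glycogen genes, 5 (18.5%) had a member in fasting, 10 (37%) at 2 h, 9 (33.3%) at 10 h and 11 (40.7%) in the IgG list. Of 24 lipid and sterol synthesis genes, 4 (16.7%), 7 (29.2%), 9 (37.5%) and 11 (45.8%) had one. Srebf1, the regulator of lipogenesis, had IgG-free members at each time, of 36.1 (fasted), 72.5 (2 h) and 61.8 (10 h) normalised tags for the largest. Fbp1, a gluconeogenic enzyme gene, had upstream members in all 4 lists, of 28.5 (fasted), 93.4 (2 h), 17 (10 h) and 87.4 (IgG). Pck1, the gluconeogenic enzyme PEPCK, had 1 member, of 23.2 normalised tags upstream at 2 h, and Slc2a2, the liver glucose transporter gene, 1 of 18.1 at 10 h. G6pc, Insr and Igfbp1 had no peak in the window in any list, and Fasn had peaks only with midpoints beyond it.

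**Figure D5:**
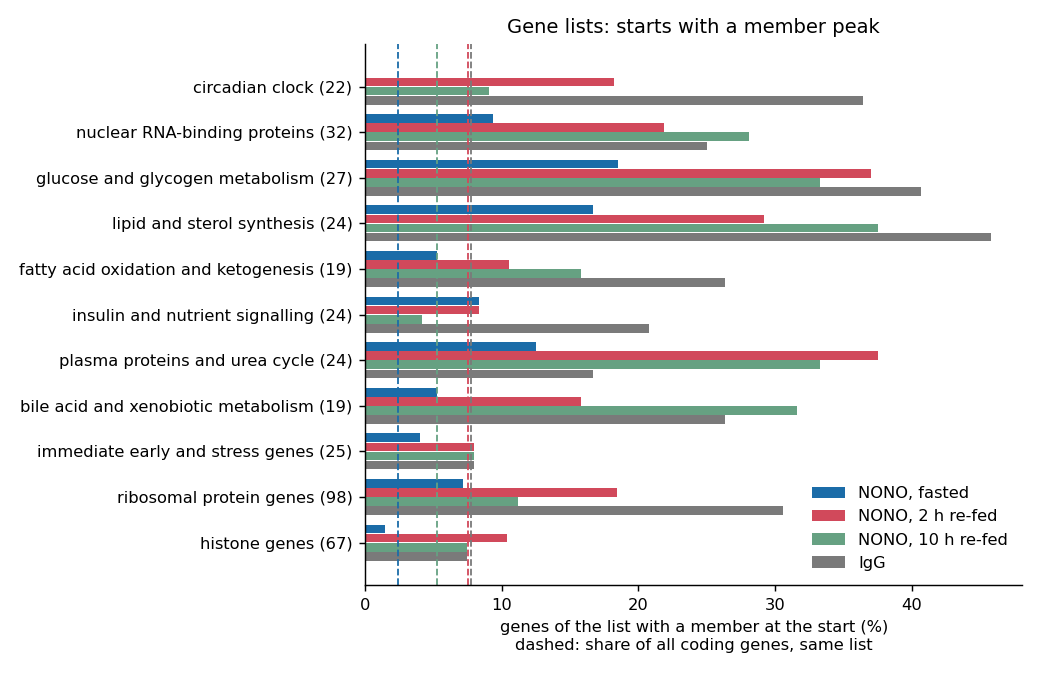
Share (%) of the genes of 11 lists that had a member at the start, by list, with the number of genes in brackets. Dashed lines mark the share of all 21951 coding genes in the same peak list (2.38% fasted, 7.53% 2 h, 5.23% 10 h and 7.72% IgG); the IgG bar is the longest for clock, glucose, lipid, fatty acid oxidation, insulin and ribosomal protein genes, and a NONO bar is the longest for plasma protein, bile acid, RNA-binding and histone genes.

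Plasma protein and urea cycle genes had more start members in the re-fed NONO lists than in IgG. Of 24 such genes, 3 (12.5%) had a member in fasting, 9 (37.5%) at 2 h and 8 (33.3%) at 10 h, against 4 (16.7%) in the IgG list, with median tags of 40.9, 24.7, 27.4 and 29. All coding genes had 2.38%, 7.53%, 5.23% and 7.72% in the same order. These are counts of few genes, given without intervals. IgG-free members were at 3 (fasted), 8 (2 h) and 8 (10 h) of the 24, where 1.66%, 4.89% and 3.14% of all coding genes had one. Cps1, the first enzyme of the urea cycle, had a downstream 2 h member of 280.2 normalised tags, and Ttr, the gene of transthyretin, had a 10 h member of 9.85 normalised tags 426 bp upstream and, elsewhere, an IgG member of 878.6 in the intron 685 bp downstream. Of 19 bile acid and xenobiotic genes, 1 (5.26%), 3 (15.8%), 6 (31.6%) and 5 (26.3%) had a member, among them Cyp2e1 with 307 at 10 h against 443.3 in IgG.

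Clock genes had fewer start members in the NONO lists than in the IgG list. Of 22, 0 had one in fasting, 4 (18.2%) at 2 h and 2 (9.09%) at 10 h, against 8 (36.4%) in the IgG list, where all coding genes had 2.38%, 7.53%, 5.23% and 7.72%. Cry1 had 5.22 at 2 h against 13.2 in IgG, Dbp 6.64 at 2 h, and Per1 8.21 at 10 h. Per2 had IgG members only, the larger with 92.7 normalised tags, and Arntl and Nr1d1 had no window peak in any list. The NONO members of Cry1, Dbp and Per1 were below the lower quartile of member tags, which was 9.48 at 2 h and 11.3 at 10 h.

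In the remaining lists the members were also spread over NONO and IgG. Of 98 ribosomal protein genes, 7 (7.14%), 18 (18.4%) and 11 (11.2%) had a member in the fasted, the 2 h and the 10 h list, against 30 (30.6%) in IgG. Of 67 histone genes, 1 (1.49%), 7 (10.4%) and 5 (7.46%) had one, against 5 (7.46%) in IgG. Both families have near copies between which reads could be split. Of 19 fatty acid oxidation and ketogenesis genes, 1 (5.26%), 2 (10.5%) and 3 (15.8%) had one against 5 (26.3%). Of 24 insulin and nutrient signalling genes, 2 (8.33%), 2 (8.33%) and 1 (4.17%) had one against 5 (20.8%). Of 25 immediate early and stress genes, 1 (4%), 2 (8%) and 2 (8%) had one against 2 (8%). All coding genes had 2.38%, 7.53%, 5.23% and 7.72% in the same order, and the histone and stress genes were near these shares. Hspa5, the gene of an endoplasmic reticulum chaperone, had IgG-free upstream members of 22.3 (fasted) and 143.2 (2 h) normalised tags. Igf1, a growth factor gene of liver, had a member within 540 bp of the start in each list, of 15.7 (fasted), 43.1 (2 h), 62.9 (10 h) and 19 (IgG).

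Among marker genes those of hepatocytes had the most start members. Of 8 hepatocyte markers, 1 (12.5%) had a start member in fasting, 4 (50%) at 2 h and 4 (50%) at 10 h, against 2 (25%) in IgG. All 8 also stand in the plasma protein and urea cycle list or in the bile acid and xenobiotic list. Their members were thus already counted there. Among all coding genes, 2.38% (fasted), 7.53% (2 h), 5.23% (10 h) and 7.72% (IgG) had a start member. Of 8 genes each for Kupffer, endothelial, stellate and blood cells and 6 for cholangiocytes, none had one in fasting. At 2 h Timd4 and Alas2 had one, at 10 h Clec4g, Stab2, Dcn and Alas2, and in IgG Sox9 and Alas2. The immunoprecipitates held 21032764 (fasted), 21091048 (2 h), 18275033 (10 h) and 18995778 (IgG) tags. At the edge of the window, 100 fasted, 252 2 h, 177 10 h and 183 IgG members lay in its outermost 100 bp and 127, 229, 187 and 161 peaks in the next 100 bp beyond it, with median tags of 17.9, 19.6, 18.6 and 13.2 inside and 16.6, 19.9, 20.2 and 13.2 outside.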

How the data were processed

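RNA immunoprecipitates and inputs were sequenced from liver nuclei, and peak lists were deposited for 3 NONO libraries and 1 IgG library. HOMER, STAR 2.4.0k and FastQC 0.11.2 are named with mm10 in the submitters' processing notes. The authors called peaks with HOMER, per the file headers, in 500 bp windows, joined them within 1000 bp on both strands together, and required 2-fold over the library's own input and 11 tags (8 in IgG). The deposited signal is the tag count of a peak scaled to a library of 10000000 tags. The deposited fold is the authors' ratio to input after scaling to equal size. The deposited score, which HOMER gives, ranked peaks for the lists of equal length. The deposited p-value of the authors was not used.

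Genes and gene structure were taken from GENCODE vM21. Midpoints within 1000 bp of a 5' end were kept unless in coding sequence or 3' UTR, and densities were divided by the sequence left by the same exclusion. Overlap meant 1 bp. Binomial (Clopper-Pearson) and Poisson intervals at 95% cover counting error only, since reads without molecular identifiers are not independent molecules. The members, gene lists and comparisons were chosen with earlier results of these data known. Genes named are the 5 most tagged members of each list, the 5 most tagged without IgG, up to 8 found without IgG at all 3 times, the 3 most tagged at bidirectional starts and on each side, up to 3 per gene list, and 18 genes whatever their value; not all are described, and a few are not reported here. In a test on simulated data all 120 planted members were found. Peak sequence was not analysed here for want of a genome. Python 3.11.15, numpy 2.4.6, pandas 2.3.3, scipy 1.17.1 and matplotlib 3.10.9 were used.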

Additional observations from a re-analysis of the deposited data

How the results depend on the processing

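No paired analysis was possible because a group is 1 library, and none could be left out. Values are given for fasted, 2 h, 10 h and IgG in turn. Members numbered 124, 485, 260 and 545 at 4-fold or more over input, 103, 457, 288 and 630 within 500 bp, 1537, 3487, 2637 and 3041 within 2000 bp, and 1263, 2973, 2213 and 3058 around all coding transcript starts, so the 2 h list passed the IgG list only at 2000 bp. The share of the list at starts was 1.55% (fasted), 2.67% (2 h), 2.76% (10 h) and 1.9% (IgG) at 4-fold or more, and 3.04% (2 h) and 3.78% (IgG) at equal list length. The downstream share was 26.6%, 26.4%, 26.5% and 47.3% at 4-fold or more and 27.2%, 26%, 25.7% and 35.4% within 500 bp, and 39.8% (2 h) and 41.3% (IgG) at equal list length. With divergent genes of any biotype the bidirectional share was 10.5%, 13.6%, 12.5% and 13.2%, where 10.8% of all starts are of that kind, and at 4-fold or more it was 4.54% (2 h), 3.08% (10 h) and 8.62% (IgG). Members with at least 50% of their length covered by an IgG peak were 22.7%, 26% and 31.5%, and those at 4-fold or more that met an IgG peak at 4-fold or more were 5.65%, 8.45% and 8.46%. Covered to the same extent by a peak of another time were 49.8% (by 2 h) and 39.1% (by 10 h) of fasted, 9.88% (by fasted) and 30.2% (by 10 h) of 2 h, and 15.2% (by fasted) and 50.5% (by 2 h) of 10 h members. At 4-fold or more 0 genes had a member at all 3 times. Keeping midpoints in coding sequence or 3' UTRs, and a divergent distance of 500 bp, moved no value beyond its counting interval. The cause of these shifts was not tested. Peaks near 11 tags (8 in IgG) limit what can be called.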
